A study of Mus musculus with 52 samples.

Results

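Mutant profilin-1 was compared with wild type in 2 regions of the mouse nervous system, and the quantity described here is the difference between the 2 responses: the transgenic minus wild-type change in spinal cord, minus the same change in cortex. It rests on 23 of the 52 RNA sequencing libraries of the series, chosen by sample title. They are 6 spinal cord libraries of wild-type FVB mice (FVB_WT), 6 of mice with the mutant human profilin-1 transgene (PFN1_C71G), 5 cortex libraries of wild-type and 6 of transgenic mice. By title, all of these mice had received vehicle, so the arms that the titles name amiR_ATXN2 are left out. Wild-type mice were 36 weeks old. Transgenic mice were of the same age except for 2 libraries in each tissue, which are labelled 39 weeks, and every group held both sexes. The labels give no second allele, no promoter for the transgene and no line or clone, and they do not tie a cord sample to a cortex sample of the same animal. They do not state that each library is a separate animal either, so the p-values measure the spread between these samples. The comparison asks which responses to mutant PFN1 were seen in cord and not in cortex, given that cortex held more of the transgene RNA.

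Profilin-1 binds actin monomers and feeds them to growing filaments, and mutations in it cause a familial form of amyotrophic lateral sclerosis (ALS), a disease of motor neurons in cord and cortex. In the spinal cord of ALS mouse models, microglia around failing motor neurons typically shift to a phagocytic, lipid-handling state that depends on the receptor TREM2. Astrocytes become reactive at the same time, and cholesterol synthesis, most active in glia that build membrane, is controlled by the sterol-sensing factor SREBP2.

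Promoter stretches are printed for genes on which the results below turn. Hmgcs1, an enzyme of cholesterol synthesis, fell in cord and differed between the tissues. Ctsd, a lysosomal protease, rose in cord while its cortex change was bounded near 0. Egr2, an immediate early gene, took opposite signs in the 2 tissues, with only its cord change called. Sequences are from RefSeq (GRCm38.p6), each read on the gene's strand and ending before the transcription start. Capitals mark the motif.
Hmgcs1 (chr13:119690184-119690252, plus strand, sterol regulatory element): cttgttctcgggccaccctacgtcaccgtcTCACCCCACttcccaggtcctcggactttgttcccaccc
Ctsd (chr7:142387889-142387956, minus strand, CLEAR element): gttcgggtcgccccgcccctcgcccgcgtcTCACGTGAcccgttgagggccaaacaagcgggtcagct
Egr2, first start (chr10:67537464-67537533, plus strand, CArG box): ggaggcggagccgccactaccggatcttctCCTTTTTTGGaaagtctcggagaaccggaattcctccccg
Egr2, second start (chr10:67537767-67537836, plus strand, CArG box): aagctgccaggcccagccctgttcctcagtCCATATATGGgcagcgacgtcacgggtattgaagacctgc
The searched letters were TCACNCCAC for the sterol regulatory element and TCACGTGA for the CLEAR element of lysosomal genes, and the CArG box was searched by its name's consensus, all on both strands of the 250 bases before the start. The sterol letters were present in 1 of the 15 cholesterol synthesis genes with a promoter in the table and in 1.24% of the 13798 tested genes with one. The CLEAR letters were present in 2 of 18 genes of the lysosome list and in 1 of 22 disease-associated microglia genes, the list that holds Ctsd, against 1.47% of tested genes. A CArG box was present in 1 of 11 immediate early genes, Egr2, against 1.43%. A match is a description of these letters and not of a bound site.

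Depth and tissue identity set the precision. The libraries held 78927071 to 109285103 counts in cord and 67496573 to 79410793 in cortex. RNA integrity numbers were 7.2 to 8.3 in wild-type cord, 7.2 to 7.7 in transgenic cord, 7.3 to 7.9 in wild-type cortex and 7.7 to 8.2 in transgenic cortex, so within cortex the transgenic RNA scored higher. The 12 Hox genes used as markers of spinal cord summed to 400 CPM (counts scaled to a common library total) or more in every cord library and to at most 0.098 CPM in cortex, and the 10 cortex markers summed to 1770 to 2570 CPM in cortex and 38.6 to 57.2 CPM in cord. Some libraries stood apart within their group. Wild-type cord libraries 1, 3 and 5 held 18.7 to 30.7 CPM of Hoxc10, a lumbar position gene, and libraries 2, 4 and 6 held 70.9 to 77.3 CPM. Skeletal muscle genes were high in wild-type cord 1 and 4, with Ckm, the muscle creatine kinase, at 8.22 and 6.76 CPM. In transgenic cortex, Slc6a3, the dopamine transporter of midbrain neurons, reached 12.7 CPM in library 1 and 10.4 CPM in library 6 against at most 0.52 CPM in the other cortex libraries, and Slc6a5, a transporter of cord and brainstem glycine neurons, reached 15.9 CPM in library 3. Hoxc10, Ckm and Slc6a3 were chosen after their values were seen. For 2 transgenic cord libraries (5 and 6) the library name gives the treated arm. The reverse holds for 2 cord libraries with titles of the treated arm, whose library names give the vehicle arm. Libraries 5 and 6 are labelled male and the other 2 female, so the choice also changes the sex balance. The titles were followed. No vector line held a count in any cord library used here, but vector lines were not counted in the treated cord libraries. Their absence therefore does not decide between title and library name.

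RNA of the transgene itself was more abundant in bulk cortex than in bulk cord. Human PFN1 RNA was 686.4 ± 43.6 CPM (unscaled, SD, n = 6) in transgenic cord, from 633.3 through a median of 685.8 to 736 CPM. In transgenic cortex it was 1026 ± 182 CPM (n = 6), from 774.2 through 1033 to 1248 CPM. The 2 sets of libraries did not overlap, and the ratio was 1.48-fold (exact permutation test, 2-sided, p = 0.00216, the smallest this design can give). In bulk tissue, more cells that express the transgene and more transgene RNA per cell cannot be told apart. In wild-type mice it was 0 in all 6 cord libraries and at most 0.0143 CPM in cortex. Endogenous mouse Pfn1 was 73.1 ± 5.54 CPM in wild-type and 97.7 ± 7.29 CPM in transgenic cord, with no overlap. In cortex it was 76.9 ± 3.32 and 81.6 ± 6.09 CPM, and the libraries overlapped. Over all genes tested 10% lay wholly above wild type in cord and 0.293% in cortex. The cord change of Pfn1 exceeded the cortex change by 0.33 on the log2 scale (SE 0.09, adjusted p = 0.0115 by edgeR). That call was lost in 4 of 44 alternative analyses, among them the one with RNA integrity as a covariate. Reads that match the human and the mouse transcript equally could be counted for either, and the sources used here do not say how they were assigned.

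**Figure D1:**
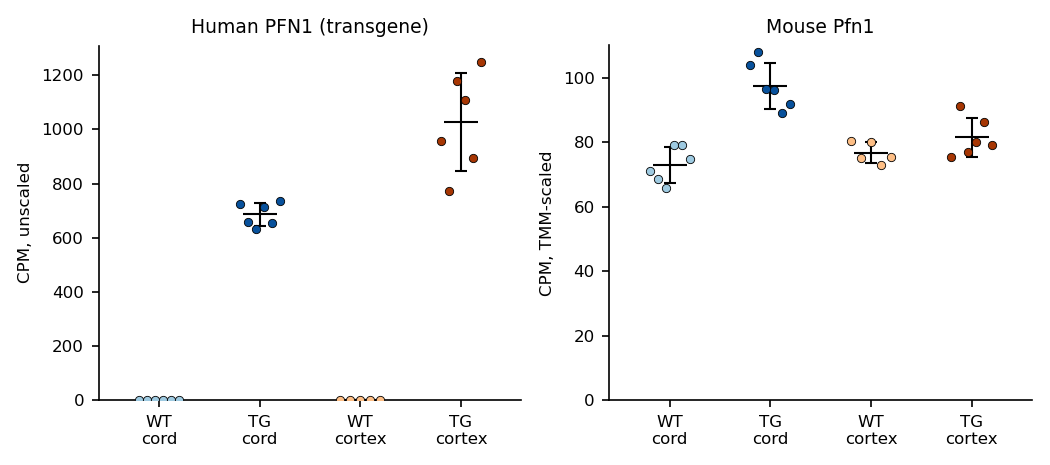
Human PFN1 (left, CPM without scaling) and mouse Pfn1 (right, CPM after TMM scaling) in each of the 23 libraries, with the group mean and SD as bars; WT is wild type and TG transgenic. Human PFN1 lies between 633.3 and 736 CPM in transgenic cord and between 774.2 and 1248 CPM in transgenic cortex.

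Despite this order of the transgene RNA in bulk tissue, almost all called changes were in cord. Of 21166 genes tested, 7109 (33.6%) changed in cord at an adjusted p under 0.05, 3177 higher (15%) and 3932 lower (18.6%). In cortex 24 genes (0.113%) changed, 8 higher (0.0378%) and 16 lower (0.0756%), and 1517 had an unadjusted p under 0.05 (1058 is 5% of the genes tested). The balance of the few cortex calls depended on the fit: with RNA integrity as a covariate 29 passed, 24 of them higher (82.8%, against 33.3%) and 5 lower. The difference between the tissues, tested as an interaction, passed for 3495 genes (16.5%), of which 1543 (7.29%) were higher in the cord response and 1952 (9.22%) lower. Among them 687 positive and 139 negative differences exceeded 2-fold. In cord the transgenic libraries lay wholly above the wild-type ones for 10% of all genes tested and wholly below for 12.3%. In cortex these shares were 0.293% and 0.274%, so groups that overlap in cortex are the usual case. Statements on overlap of single genes are to be read against these shares. The median standard error of a change was 0.115 in cord and 0.121 in cortex on the log2 scale, from a fit in which both tissues share 1 dispersion per gene, so these values do not compare the spread within each tissue. With weights per group (voom) 8202 genes passed in cord and 14 in cortex. The balance of higher and lower calls depended on scaling. With library totals and no scaling factor 2790 genes passed and 72.5% of them were higher, against 44.1% with TMM scaling, and the median cord change over all genes moved from -0.03 to 0.10 on the log2 scale.

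Most of the called differences were responses led by cord. In 3333 genes (15.7% of those tested) the interaction and the cord change were both called with the same sign, 1489 higher (7.03%) and 1844 lower (8.71%). For 1896 of these the 95% interval of the cortex change lay within 1.2-fold either way, 469 of them higher in cord and 1427 lower. Over all genes tested 37.9% had such a narrow cortex interval. For another 1431 cord-led genes cortex was neither called nor bounded, and 1028 of these had at least 1 CPM in cortex. Cortex was called in the same direction in 2, Slamf9 and Glipr1, and in the opposite direction in 4, Pvr, Junb, Ccn1 and Plscr5, of which all but Junb were chosen after their values were seen, as was Glipr1. For 3764 of the 7109 genes called in cord the interaction was not called, so no difference between the tissues was shown for them. Genes that rose over 2-fold in cord tended to a small positive value in cortex. Of 1032 such genes 848 (82.2%) had a positive cortex change, with a median of 0.19 on the log2 scale against 1.66 in cord, while over all tested genes 58.3% had the same sign in both tissues. The share was 388 of 454 (85.5%) among those with at least 1 CPM in cortex, where the median cortex change was 0.14. Of 140 genes that fell over 2-fold in cord 71 (50.7%) had a negative cortex change. The share was 36 of 50 (72%) among those with at least 1 CPM in cortex, where the median cortex change was -0.09. Among those under 1 CPM in cortex it was 35 of 90 (38.9%).

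**Figure D2:**
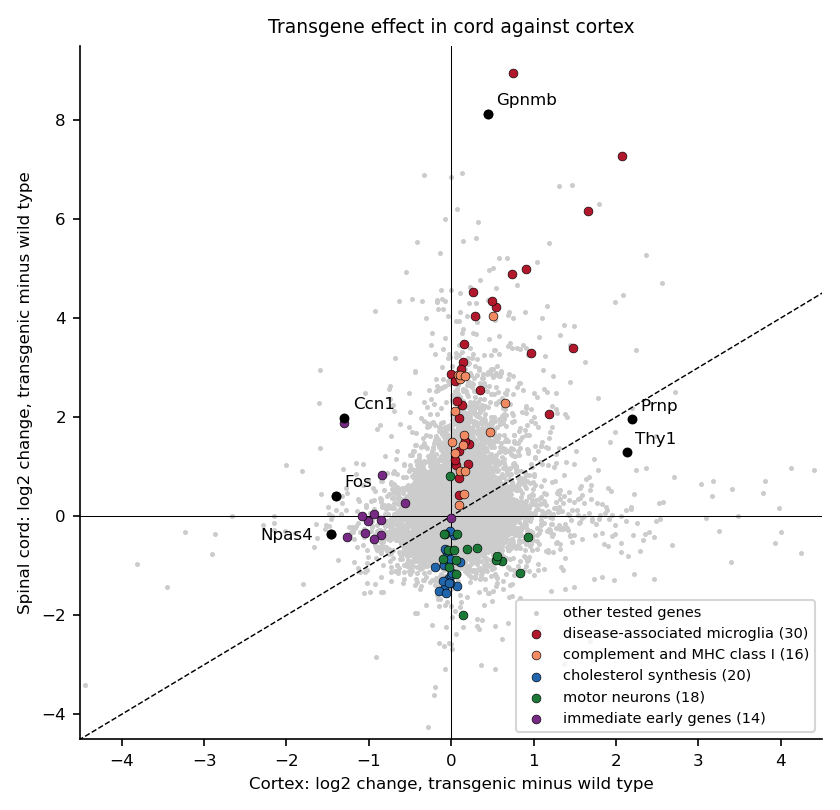
Log2 change with the transgene in cortex (horizontal) and in spinal cord (vertical) for each tested gene, with 5 gene lists in colour and 6 genes named; the dashed line marks equal change, and 16 genes lie beyond the axes. Microglial and complement genes rise along the cord axis, cholesterol genes fall along it, immediate early genes lie left of 0, and Prnp and Thy1 lie near the dashed line or right of it.

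Large differences were seen in microglial genes of the phagocytic state. Of 30 genes known as markers of disease-associated microglia, all rose in cord and 28 had a higher response in cord than in cortex by the interaction (7.29% of all genes tested did), with a median cord change of 2.92 and a median cortex change of 0.21 on the log2 scale. No member was called in cortex, and 29 of 30 had a positive value there. The members that did not pass the interaction were Spp1 and Ccl4. The summed level of the list was 2410 to 2820 CPM in wild-type and 9580 to 10900 CPM in transgenic cord, and 2100 to 2370 against 2110 to 2730 CPM in cortex. In bulk tissue, more microglia and more RNA per microglial cell cannot be told apart.

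Gpnmb, a glycoprotein of lipid-laden phagocytes (chromosome 6, 49036546 to 49070929), had 1 of the largest differences. It lay between 0.249 and 0.786 CPM (median 0.704) in wild-type cord and between 150 and 212 CPM (median 176) in transgenic cord. Wild-type cortex held 1.27, 0.61, 0.492, 0.291 and 0.418 CPM, and transgenic cortex 0.571 to 1.18 CPM (median 0.8). The cord groups were far apart and the cortex groups overlapped. The interaction was 7.68 (SE 0.36, adjusted p = 7.8e-12 by edgeR). Trem2, the lipid-sensing microglial receptor (chromosome 17, 48346401 to 48354147), had a median of 6.82 CPM in wild-type cord (5.95 to 9.31) and 52 CPM in transgenic cord (50.4 to 58.7). Its 5 wild-type cortex libraries held 8.82, 9.37, 11, 9.81 and 8.9 CPM, and its transgenic cortex libraries 7.87 to 12.4 CPM with a median of 9.48. Trem2 thus rose in cord by 2.88 on the log2 scale, and the 95% interval of its cortex change ran from -0.24 to 0.23. Lyz2, lysozyme of macrophages, rose from a median of 14.6 CPM (8.29 to 19.2) to 822 CPM (741 to 917) in cord. In cortex its medians were 9.17 and 11.1 CPM with overlapping libraries, and the interaction was 5.62 (SE 0.34). Lyz2 has a close copy, Lyz1, and reads of the pair may be split between them.

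Other members of the largest 10 were Atp6v0d2, a subunit of the lysosomal proton pump, at 8.20 (SE 1.61), and Mmp12, macrophage elastase, at 5.19 (SE 1.17). Both were under 0.5 CPM in every cortex library. Their calls were lost in 4 and 5 of 44 alternatives, including without wild-type cortex 5 for Atp6v0d2 and without wild-type cortex 2 for Mmp12. The scavenger receptor Msr1 (5.30, SE 0.44), the sialic acid receptor Siglec1 (4.63, SE 0.45) and the macrophage membrane protein Ms4a7 (5.4, SE 0.47) also belonged to this set. So did the matricellular proteins Ccn5 (5.45, SE 0.69) and Postn (4.54, SE 0.33), and the transglutaminase Tgm1 (4.57, SE 0.48). Cortex held at most 0.209 CPM of Ccn5 and 0.304 CPM of Tgm1, which is 1 to 17 and 4 to 25 counts per library, so the size of these differences rests on few cortex counts.

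Receptors and effectors of phagocytes followed the same pattern. Of 17 tested phagocyte receptors 16 had a higher response in cord (7.29% of all genes tested did). Median changes were 2.44 in cord and 0.12 in cortex. The Fc receptor Fcgr3 had an interaction of 2.23 (SE 0.14), its signalling chain Fcer1g 2.82 (SE 0.18) and the lipid receptor Cd300lf 2.47 (SE 0.18). Olr1 alone did not pass. Of 22 lysosomal genes and autophagy receptors 12 were higher in the cord response and none lower, with a median of 0.36 in cord and 0.05 in cortex. Ctsd, printed above, went from 356 to 428 CPM in wild-type cord to 1790 to 2230 CPM in transgenic cord, and from 256 to 269 CPM in wild-type cortex to 244 to 320 CPM in transgenic cortex. The interaction of Ctsd was 2.25 (SE 0.09). Progranulin, Grn, had 1.82 (SE 0.10), and cathepsin S, Ctss, 2.12 (SE 0.13).

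Genes of resting microglia divided. Of 14 tested markers 7 had a higher and 1 a lower response in cord, against 7.29% and 9.22% of all genes tested. Fcrls (4.08, SE 0.29) and the fractalkine receptor Cx3cr1 (1.38, SE 0.13) were higher. P2ry12, the purinergic receptor that marks resting microglia, had an interaction of -0.05 and Tmem119 one of 0.28, neither called, and the lower member was the fructose transporter Slc2a5. Of 10 markers of peripheral macrophages and monocytes 2 passed, Lyz2 and Ms4a7, and the summed level rose from 13.8 to 28.6 CPM to 758 to 934 CPM in cord, most of it Lyz2.

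Most complement and MHC class I genes were higher in the cord response as well. Of 16 tested 13 passed, all higher (7.29% of all genes tested were), with median changes of 1.66 in cord and 0.12 in cortex. C1qa, a chain of the complement initiator C1q, was 20.4 to 28 CPM in wild-type and 155 to 179 CPM in transgenic cord. In cortex the 5 wild-type libraries held 25.1, 27.9, 28.9, 26.4 and 27.5 CPM and the transgenic ones 24.5 to 36.2 CPM (median 27.3). The cord groups did not overlap and the cortex groups did, with an interaction for C1qa of 2.78 (SE 0.12, adjusted p = 3e-12 by edgeR). In cord 10% of all genes tested lay wholly above wild type. C3, Tap2 and Tapbp did not pass. Of 19 tested chemokines and cytokines 8 passed, among them Tgfb1 (1.32, SE 0.15), Il1a (1.86, SE 0.32) and Lif (1.23, SE 0.21), and 14 of the 19 were under 1 CPM in cortex.

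Several interferon and lymphocyte genes rose in cord, while the share that passed the interaction was near that of all genes tested. In this paragraph the shares to read against are 15% of all genes called higher in cord and 7.29% higher by the interaction. Of 24 interferon-stimulated genes 16 rose in cord, 2 passed the interaction (Bst2 and Irf9), none was called in cortex, and 22 had a positive cortex value. Their median change was 0.49 in cord and 0.22 in cortex. Of 8 MHC class II genes 5 rose in cord and 1 passed, H2-DMb2, whose call was lost in 30 of 44 alternatives. Of 9 B cell genes 5 rose in cord and none passed the interaction, and of 10 T cell genes 7 rose and 1 passed, Trbc2. Summed B cell genes were 11.7 to 17.8 CPM in wild-type and 11.5 to 27 CPM in transgenic cord.

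**Figure D3:**
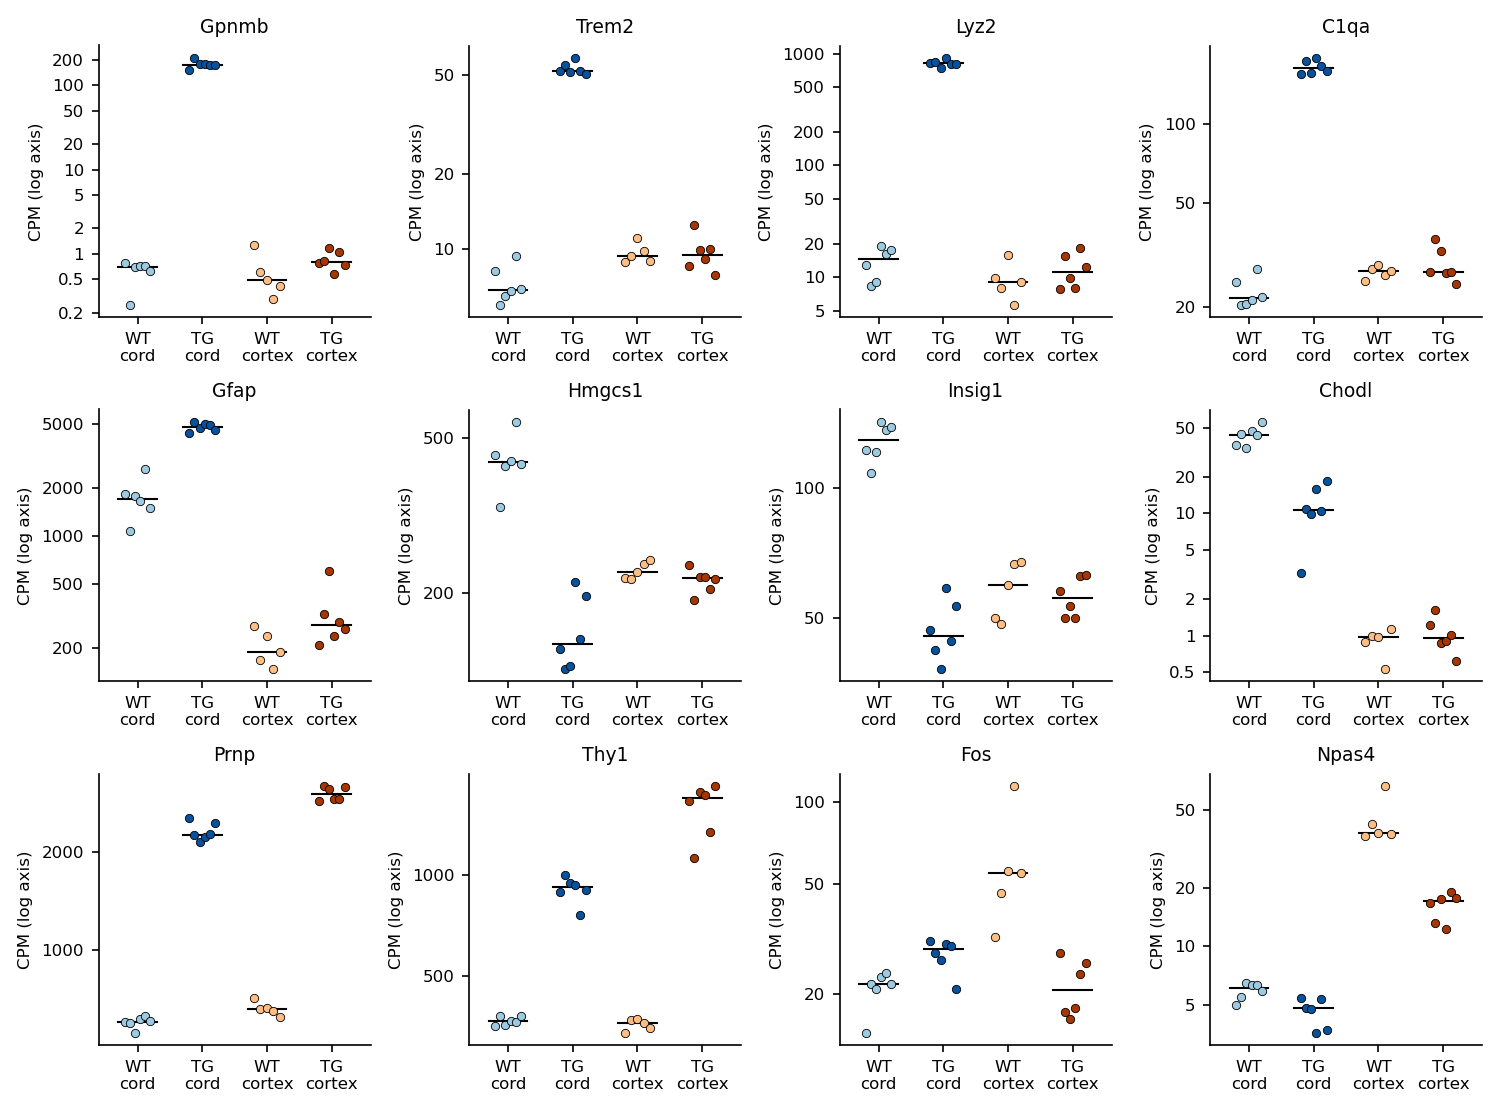
The 12 named genes in each library (CPM after TMM scaling, log axis), with the group median as a line; WT is wild type and TG transgenic. Gpnmb, Trem2, Lyz2 and C1qa separate the cord groups and not the cortex groups, Hmgcs1 and Insig1 are lower in transgenic than in wild-type cord and overlap in cortex, Prnp and Thy1 rise in both tissues, and Fos and Npas4 are lower in transgenic cortex.

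Astrocyte genes of the reactive state were also higher in the cord response. Of 23 tested, 20 rose in cord (15% of all genes tested did) and 15 passed the interaction, all higher (7.29% did). Medians were 1.60 in cord and 0.20 in cortex. Osmr, the oncostatin M receptor, had a median of 8.69 CPM in wild-type cord (7.69 to 9.64) and 36.7 CPM in transgenic cord (33 to 43), against 7.17 and 8.86 CPM in cortex. The interaction of Osmr was 1.83 (SE 0.13). Socs3, a feedback inhibitor of cytokine signalling, had 2.87 (SE 0.27) and S1pr3, a sphingosine phosphate receptor, 1.86 (SE 0.17). Gfap, the filament protein that defines reactive astrocytes, rose in cord by 1.47 but did not pass the interaction (0.86, SE 0.30, adjusted p = 0.0563 by edgeR). Its wild-type cortex libraries held 274, 168, 239, 149 and 188 CPM and the transgenic ones 210 to 604 CPM, with the groups overlapping. Genes of astrocyte homeostasis divided in cord, where 4 of 14 were called higher (15% of all genes tested were) and 4 lower (18.6%). Their median interaction was -0.06. By the interaction 3 passed, all higher (7.29% of all genes tested were): the water channel Aqp4 (0.70, SE 0.16), Mlc1 (0.43, SE 0.10) and the transcription factor Sox9 (0.65, SE 0.12).

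Cholesterol synthesis fell in cord, with small changes in cortex. All 20 enzymes of the list fell in cord and 19 of them passed the interaction (9.22% of all tested genes were lower), with a median change of -1.08 in cord and -0.04 in cortex. The cortex interval lay within 1.2-fold for 14 of the 19. Ebp did not pass. Hmgcs1, which makes the precursor HMG-CoA and whose sterol element is printed above, was 333 to 551 CPM in wild-type cord (median 434) and 128 to 214 CPM in transgenic cord (median 148). In cortex the 5 wild-type libraries held 219, 217, 227, 238 and 243 CPM and the transgenic ones 192 to 236 CPM (median 218). The cord groups of Hmgcs1 did not overlap, and wild-type cord was the only group apart from the other 3, which lay between 128 and 243 CPM. The interaction was -1.38 (SE 0.13). Later steps behaved alike: squalene epoxidase Sqle had -1.33 (SE 0.10) and squalene synthase Fdft1 -1.18 (SE 0.09). With the cord vehicle arm taken by library names 15 of 20 enzymes passed, and with library totals in place of TMM 19 did.

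Most other SREBP targets moved the same way. Of 14 tested 10 were lower in the cord response (9.22% of all genes tested were). Insig1, which retains the SREBP complex in the endoplasmic reticulum, was 108 to 142 CPM in wild-type and 38.1 to 58.5 CPM in transgenic cord. In cortex it was 49.8, 48.3, 59.5, 66.7 and 67.1 CPM in wild-type and 49.8 to 62.7 CPM in transgenic libraries, which overlapped. The interaction of Insig1 was -1.42 (SE 0.11), and that of Acly, which supplies acetyl-CoA, -0.89 (SE 0.10). Genes of cholesterol efflux and lipid storage went the other way. Of 15 tested 11 were higher in the cord response (7.29% of all genes tested were) and none lower. Apoe, the main lipid carrier of the brain, rose from 902 to 1100 CPM to 4330 to 5370 CPM in cord, against 1080 to 1320 and 1050 to 1630 CPM in cortex, with an interaction of 2.11 (SE 0.14). Mylip, an LXR target, had 1.08 (SE 0.10), and the lysosomal lipase Lipa 0.76 (SE 0.07). Myelin genes, another part of oligodendrocyte lipid biology, gave no called difference in 15 tested, with medians of -0.21 in cord and -0.02 in cortex. Their summed level was 17500 to 30100 CPM in wild-type and 16800 to 22600 CPM in transgenic cord.

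Part of the motor neuron list was lower in the cord response. Of 18 tested, 12 fell in cord (18.6% of all genes tested did) and 7 passed the interaction as lower (9.22% did). The 1 higher member was the annexin Anxa4 (0.83, SE 0.17), against 7.29% of all genes tested. The median change of the list was -0.75 in cord and 0.06 in cortex. Chodl, a membrane lectin of fast motor neurons, was 34 to 56.1 CPM (median 43.9) in wild-type cord and 3.25 to 18.5 CPM (median 10.7) in transgenic cord, without overlap. Cortex held 0.536 to 1.61 CPM of Chodl over both groups. The interaction of Chodl was -2.13 (SE 0.39, adjusted p = 0.000573 by edgeR). Mmp9, a marker of vulnerable motor neurons, had -1.24 (SE 0.22). Slc18a3, the vesicular acetylcholine transporter, fell in cord from 32.8 to 42.6 CPM to 5.96 to 24.1 CPM and passed with -1.98 (SE 0.59). Chat, the enzyme that makes acetylcholine, had -1.53 (SE 0.56, adjusted p = 0.0656 by edgeR) and did not pass. Slc18a3 lies inside the Chat gene, so their counts may be shared. Transgenic cord 1 held the least of Chodl, Slc18a3 and Chat in cord. In cortex Slc18a3 ranged from 0.19 to 2.7 CPM, and part of its negative interaction came from a positive cortex value (0.83) that was not called. Without transgenic cortex 1, 3 and 6, 4 of the 18 genes passed as lower. With females only none did.

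Many axonal and synaptic genes shared this direction with smaller size. Of 13 neurofilament and transport genes 9 were lower in the cord response (9.22% of all genes tested were). Medians were -0.53 in cord and -0.04 in cortex. Nefl, the light neurofilament chain, was 1610 to 1950 CPM in wild-type and 724 to 1120 CPM in transgenic cord, while the cortex groups, 294 to 352 and 250 to 381 CPM, overlapped. Nefl had an interaction of -0.84 (SE 0.14), the microtubule regulator Stmn2 -0.57 (SE 0.09) and the motor Kif1a -0.46 (SE 0.08). Of 17 synaptic genes 9 were lower, including Rab3a (-0.42, SE 0.08) and Cplx1 (-0.53, SE 0.11). With library totals 4 of the 17 synaptic genes and 8 of the 13 axonal genes passed. Of 12 genes of glycine and GABA neurons 4 were lower in the cord response, with medians of -0.29 in cord and 0.06 in cortex. In cord 3 of the 12 were called lower (18.6% of all genes tested were). Of 14 genes of neuronal injury and regeneration 4 were higher (7.29% of all genes tested were) and 10 did not pass, with a median interaction of 0.20. Those higher were led by Atf3, a transcription factor of injured neurons (2.85, SE 0.33), with Gadd45a (0.98, SE 0.28) and Ddit3 (0.47, SE 0.13).

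Small shifts in housekeeping complexes depended on the scaling. Of 30 nuclear genes of oxidative phosphorylation 23 were lower in the cord response, with a median of -0.23 in cord and 0.04 in cortex. All 30 cortex intervals lay within 1.2-fold (37.9% of all genes tested did). With TMM scaling 9.22% of all genes tested were lower by the interaction and 7.29% higher. Ndufa9 of complex I was 98.7 to 107 CPM in wild-type and 76.5 to 85.7 CPM in transgenic cord, against 62.5 to 67.5 and 61.4 to 72.3 CPM in cortex (interaction -0.39, SE 0.06). With library totals 5 of the 30 passed and the median interaction moved from -0.27 to -0.18. None passed with the cord vehicle arm by library names. None of the 13 genes of the mitochondrial genome passed. Of 23 proteasome genes 6 were lower, or 2 with library totals, and Psmc5 had -0.46 (SE 0.09). Of 28 ribosomal protein genes 6 were higher, or 10 with library totals and 1 without transgenic cortex 1, 3 and 6, with Rpl5 at 0.28 (SE 0.07).

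Actin genes are the pathway of profilin itself. In the cord response 10 of 30 were higher (7.29% of all genes tested) and 1 lower (9.22%). Those with the smallest adjusted p were Capg, a capping protein of macrophages (2.10, SE 0.20), Was, the actin regulator of blood cells (1.56, SE 0.18), and Tmsb4x, which sequesters actin monomers (0.74, SE 0.09). Among 27 genes linked to ALS 3 were higher and 7 lower, against 7.29% and 9.22% of all genes tested, so the higher count lies near the background. Ang, angiogenin, had 2.11 (SE 0.20), Vapb -0.29 (SE 0.05), and Pfn1 is given above. Of 14 p53 targets 7 were higher and 1 lower, with Cdkn1a at 1.01 (SE 0.17), Ccng1 at 0.78 (SE 0.18) and Mdm2 at 0.26 (SE 0.06). Heat shock genes gave 1 call in 14, the small chaperone Hspb1, with 17.7 to 30 CPM in wild-type cord, 51 to 85.8 CPM in transgenic cord and 3.65 to 9.8 CPM over the cortex groups (1.93, SE 0.29). Of 10 heat shock genes that fell in cord (18.6% of all genes tested did) none passed the interaction, and 1 call in 14 lies near the background. The integrated stress response had 3 higher and 2 lower of 16, and 2 of 15 endoplasmic reticulum chaperones were higher, Sdf2l1 and Pdia4, whose calls were lost in 19 and 22 of 44 alternatives.

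**Figure D4:**
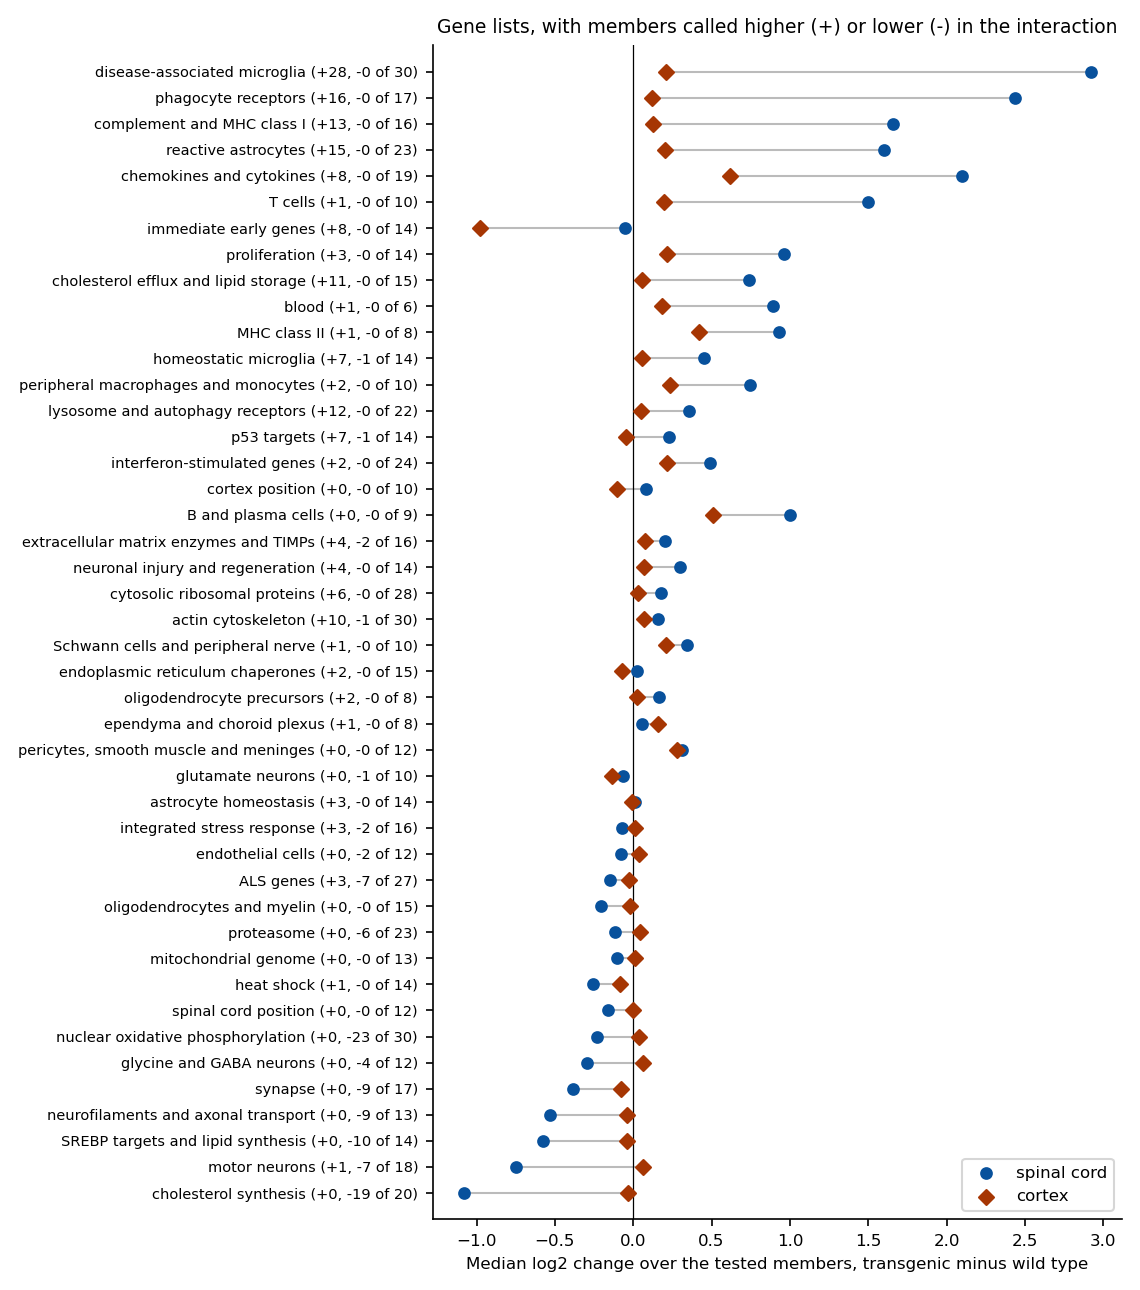
Median log2 change with the transgene over the tested members of each of the 44 gene lists in spinal cord (circles) and cortex (diamonds), ordered by the median interaction. The number of members called higher (+) or lower (-) by the interaction follows each name; the cord medians run from -1.08 for cholesterol synthesis to 2.92 for disease-associated microglia, and the widest cortex median is -0.98 for immediate early genes.

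Among cord-led genes with a bounded cortex change, those with the largest cord change were Trem2 (described above), the transporter Abcc3, the poly(A) polymerase Tent5c, Ctsd, the leukocyte tetraspanin Cd53, the ARF exchange factor Cyth4, the signalling protein Vav1 and the protease Prss23. Their cord changes ran from 1.97 for Prss23 to 2.88 for Trem2, and their cortex changes from -0.07 for Tent5c to 0.06 for Ctsd. All 8 kept their call under each of the 44 alternatives for the interaction. The mean level of Cd53 was 27.4 CPM in transgenic against 5.58 CPM in wild-type cord, and 8.53 against 8.25 CPM in cortex. In wild-type cortex the medians of these genes ran from 2.85 CPM for Abcc3 to 263 CPM for Ctsd.

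At the other end, several of the 10 largest negative differences were in genes with 1 or a few libraries far above the rest of their group. Slc6a5 had the largest (-5.0, SE 1.33, adjusted p = 0.0121 by edgeR). It was 485 to 581 CPM in wild-type and 289 to 371 CPM in transgenic cord, where the groups did not overlap but the change was not called (-0.75, SE 0.55). In cortex it was 0.046 to 0.188 CPM in wild-type libraries and 0.0967, 0.126, 15.9, 0.109, 0.444 and 1.37 CPM in transgenic libraries 1 to 6. Without transgenic cortex 3 it was -2.5 and without transgenic cortex 1, 3 and 6 it was -1.64, both still called, and it was not called without wild-type cortex 2. Glra1, the glycine receptor, had -2.23 (SE 0.49), with a highest cortex value of 2.72 CPM in transgenic cortex 6, and -1.62 without those 3 libraries. It kept its call without any 1 library.

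Mab21l2 (-2.39, SE 0.71) was 2.96 CPM in transgenic cortex 6 and at most 0.567 CPM in the other cortex libraries. Its call was lost without transgenic cortex 6 and without wild-type cortex 3, 4 or 5. Dao, the D-amino acid oxidase, had -2.35 (SE 0.64), with 0.357 and 0.45 CPM in transgenic cortex 5 and 6 and at most 0.0967 CPM elsewhere in cortex, and it too kept its call without any 1 library. Slc10a4, a vesicle protein of cholinergic and monoamine neurons, had -2.19 (SE 0.56) and lost its call without transgenic cortex 1, 3 and 6. The midbrain marker Slc6a3, given above, was high in libraries 1 and 6 of the same group, and its part in these results was not tested.

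Muscle genes moved with wild-type cord libraries. Myh2, a fast myosin, was 15.7, 0.0713, 1.64, 2.4, 0.0584 and 1.39 CPM in wild-type cord 1 to 6, 0.105 to 0.231 CPM in transgenic cord and 1.39 to 3.1 CPM in cortex. The interaction of Myh2 was -3.97 (SE 1.16), and its call was lost or turned in 13 of 44 alternatives. It was -2.57 and still called without wild-type cord 1. It was not called without transgenic cord 1 or without wild-type cord 1 and 4 (-2.14), and turned to 0.50 with the cord vehicle arm by library names. Atp2a1, the muscle calcium pump, was 20.7 and 12.8 CPM in wild-type cord 1 and 4, and its call (-4.22, SE 1.37) was lost in 24 of 44 alternatives, among them those without wild-type cord 1 or without wild-type cord 4. Ckm was high in the same 2 libraries, and the part of muscle RNA in these results was not tested. Smyd1, a muscle methyltransferase, had -2.0 (SE 0.22) and kept its call in all 44 alternatives, with 5.5 to 8.19 CPM in wild-type cord, 1.95 to 2.72 CPM in transgenic cord and overlapping cortex groups. Dlx2, a factor of forebrain interneurons, had -2.41 (SE 0.48) on at most 0.166 CPM in cord.

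**Figure D5:**
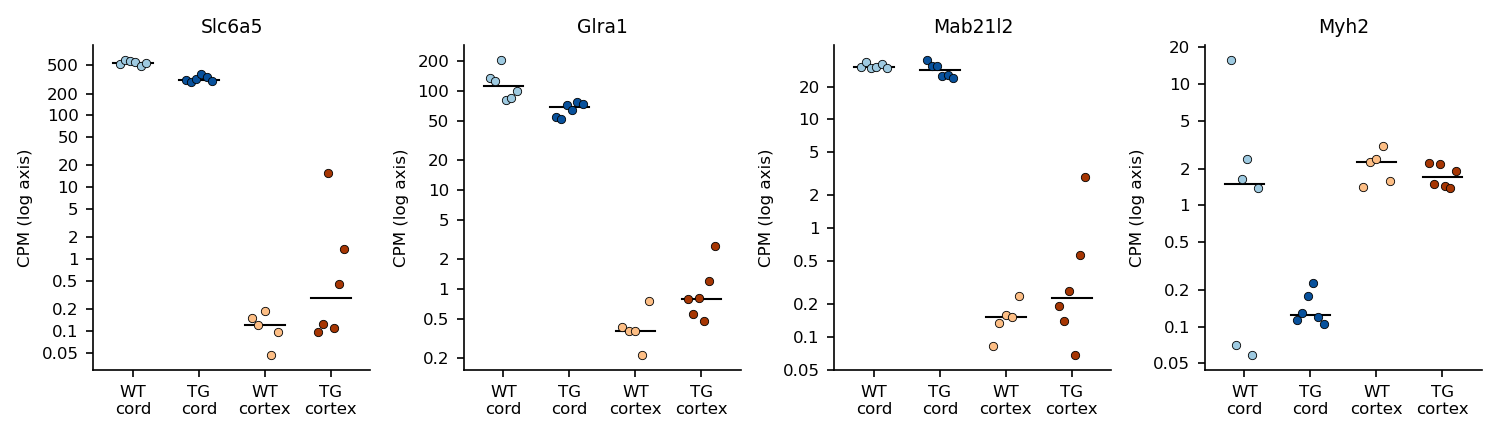
Slc6a5, Glra1, Mab21l2 and Myh2 in each library (CPM after TMM scaling, log axis), with the group median as a line; WT is wild type and TG transgenic. One transgenic cortex library holds 15.9 CPM of Slc6a5, another 2.96 CPM of Mab21l2, and 1 wild-type cord library 15.7 CPM of Myh2.

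Few genes were called in both tissues. In 9 genes both changes were called with the same sign and the interaction was not: Nbdy, Lamr1-ps1, Mnat1, Six4, Tob1, Taf5, Evi2, Gm45022 and Gm42937 (Lamr1-ps1 and the last 3 lie outside the naming rule and were chosen after their values were seen). In 2 more, Prnp and Thy1, both were called and the change was larger in cortex. Prnp, the prion protein (chromosome 2, 131909928 to 131938429), was 555 to 625 CPM in wild-type and 2140 to 2540 CPM in transgenic cord. Its 5 wild-type cortex libraries held 709, 656, 660, 645 and 621 CPM and the transgenic ones 2860 to 3190 CPM. Neither tissue showed overlap, and the changes were 1.95 (SE 0.05) in cord and 2.2 (SE 0.06) in cortex, with an interaction of -0.24 (SE 0.07, adjusted p = 0.0224 by edgeR). Thy1, a neuronal surface protein (chromosome 9, 44043384 to 44048579), went from 357 to 382 CPM to 760 to 1000 CPM in cord and from 341 to 373 CPM to 1120 to 1830 CPM in cortex, with changes of 1.29 (SE 0.09) and 2.13 (SE 0.10) and an interaction of -0.84 (SE 0.13). Prnp and Thy1 were thus, like human PFN1, higher in transgenic cortex than in transgenic cord, without overlap. The sources used here do not say whether the construct carries sequence of either gene.

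Nbdy, which encodes a small protein of mRNA decapping bodies (chromosome X, 153723590 to 153741920), was 15.9 to 18.3 CPM in wild-type cord and 10.5 to 13 CPM in wild-type cortex. In transgenic mice it was 0 in 4 of 6 libraries of each tissue and at most 0.0323 CPM in the rest. The ribosomal protein pseudogene Lamr1-ps1 was at most 0.0145 CPM in wild-type and 2.75 to 5.49 CPM in transgenic libraries of either tissue. It lies on chromosome 2 from 131904086 to 131904959, and its centre is 20 kb from that of Prnp. On chromosome 12, Mnat1, a subunit of the CDK-activating kinase, and Six4, a homeobox gene, lie 10 kb apart and fell in both tissues. Mnat1 was 9.74 to 11.2 CPM in wild-type and 6.62 to 7.69 CPM in transgenic cord, and 8.18 to 9.46 against 6.22 to 7.08 CPM in cortex, with changes of -0.55 (SE 0.05) and -0.47 (SE 0.06). Six4 had -1.35 (SE 0.17) and -1.02 (SE 0.19). Of the 9 other tested genes within 500 kb of Mnat1, Six4 was the only 1 called in cortex. In cord 5 of the 9 were called (33.6% of all genes tested were). Of the 5 others within 500 kb of Nbdy 4 were called in cord and 1 in cortex. The predicted gene Gm45022 overlaps the start of Nbdy. The sources used here do not give the site of the transgene. Tob1 and Taf5 fell in both tissues by 0.20 to 0.39 on the log2 scale, and the immune receptor Slamf9, whose cord change was the larger by the interaction, rose in both, by 2.68 in cord and 0.84 in cortex. The cortex calls of Tob1, Six4, Slamf9 and Taf5 were lost in 9, 23, 27 and 31 of 43 alternatives, those of Prnp, Nbdy and Thy1 in none.

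Immediate early genes, which neurons switch on within minutes of activity, were lower in transgenic cortex for several members. Of 14 tested, 8 had a higher response in cord than in cortex by the interaction (7.29% of all genes tested did). The medians, however, were -0.06 in cord and -0.98 in cortex. None of the 14 had a positive cortex value, and 5 were called lower there (0.0756% of all tested genes were). In cord 2 of the 14 were called higher, near the share of all genes tested (15%). Fos was 32.3, 46.6, 56.1, 114 and 55.1 CPM in wild-type cortex 1 to 5 and 16.2 to 28.1 CPM (median 20.7) in transgenic cortex, with no overlap. In cord it was 14.5 to 23.9 and 20.9 to 31.1 CPM, which overlapped. Its cortex change was -1.40 (SE 0.21, adjusted p = 0.0069 by edgeR) and its interaction 1.81 (SE 0.29). Npas4, a factor induced by neuronal activity, was 37, 42.5, 38.3, 66.9 and 38 CPM in wild-type and 12.2 to 19 CPM in transgenic cortex, without overlap. It stood at 3.59 to 6.43 CPM over both cord groups, and its cortex change was -1.45 (SE 0.15). Btg2, an antiproliferative early gene, had a cortex change of -1.09 (SE 0.21) and a cord change of 0.01.

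Junb moved in opposite directions in the 2 tissues, and Egr2 took opposite signs with only its cord change called. Junb rose in cord from 8.42 to 12.3 CPM to 16.4 to 21.3 CPM and fell in cortex from 52.6 to 133 CPM to 37 to 47.9 CPM, each without overlap (interaction 1.68, SE 0.21). Egr2, whose CArG boxes are printed above, had an interaction of 3.18 (SE 0.61), a called cord change of 1.88 and a cortex change of -1.31 that was not called. It was 0.575 to 2.55 CPM in wild-type and 2.24 to 10.4 CPM in transgenic cord. In cortex it was 11.6, 19.4, 16.7, 44.7 and 19.7 CPM in wild-type and 4.28 to 14.3 CPM in transgenic libraries. The groups overlapped in both tissues. Egr2 is also on the Schwann cell list, which summed to 183 to 753 CPM in wild-type and 188 to 1260 CPM in transgenic cord. The part of Schwann cell RNA in the cord change of Egr2 was not tested. Ccn1, a matricellular early gene chosen after its values were seen, rose by 1.99 in cord and fell by 1.3 in cortex, both called. Wild-type cortex 4 held the most of Fos, Npas4, Junb and Egr2. Without it 7 of the 14 genes passed the interaction, 3 were called in cortex and the median cortex change was -0.78. Without wild-type cortex 1, which held the least Fos of its group, 11 passed and 11 were called in cortex. The labels do not say how or when the tissues were taken, and RNA integrity was higher in transgenic cortex (given above). With integrity as a covariate 4 passed, 1 was called in cortex and the median cortex change was -0.65, and its part in these values was not tested.

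Further lists, most of them of cell types, complete the account. Their counts are to be read against all genes tested, of which 7.29% were higher and 9.22% lower by the interaction. No interaction was called among the 12 pericyte, smooth muscle and meningeal genes, the 9 B cell genes, the 10 cortex markers or the 12 spinal cord markers. Of 12 endothelial genes 2 were lower, the lipid transporter Mfsd2a (-0.82, SE 0.16) and the growth factor receptor Kdr (-0.49, SE 0.11). Of 8 oligodendrocyte precursor genes Cspg4 (0.71, SE 0.16) and Vcan (0.70, SE 0.23) were higher, and the call of Vcan was lost in 23 of 44 alternatives. Of 14 proliferation genes 12 rose in cord (15% of all genes tested did) and 3 passed, Ccnb2, Pcna and Ccnb1, and without transgenic cortex 1, 3 and 6 the number was 8. Schwann cell genes summed to 183 to 753 CPM in wild-type and 188 to 1260 CPM in transgenic cord, and 1 of 10 passed, Egr2. Haemoglobin and other blood genes summed to 65.3 to 308 and 109 to 705 CPM in cord and 1 of 6 passed, Hba-a2, which has a near-identical copy and whose call was lost in 22 of 44 alternatives.

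A difference by sex was not detectable at this size. The difference of the interaction between males and females was called for none of 21166 genes by edgeR, and 2262 had an unadjusted p under 0.05, against the 1058 that make 5% of the genes tested. Within each sex the counts were smaller, 638 genes in females and 2940 in males, with 2 to 3 libraries per group. Of the calls in females 516 were higher and 122 lower (80.9% higher), and of those in males 1215 were higher and 1725 lower (41.3%).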

How the data were processed

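Poly(A) RNA from powdered mouse spinal cord and cortex was sequenced as paired ends. Per the submitters' processing notes, the authors worked with the GRCm38 and GRCh38 builds and with RSEM 1.3.2, STAR 2.7.2d, DESeq2 1.34.0 and bcl2fastq 2.20, and the deposited table holds RSEM's estimated counts per gene (expected counts), which were rounded here to whole numbers. It lists 55401 mouse genes, 55141 of them matched to a symbol, with human PFN1, vector lines and spike-ins. Lines of no gene held at most 2.54e-06% of a library's counts and stayed out of the totals, which ran from 67496573 to 109285103 counts. Coordinates are those of GRCm38. The TMM factors are relative to mouse genes, and human PFN1 is given without them.

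Genes were tested with edgeR 4.0.16 in R 4.3.3: quasi-likelihood F test, TMM scaling, edgeR's filter on low counts by group, 4 groups and a sex term in each tissue, Benjamini-Hochberg adjustment over 21166 genes and a threshold of 0.05. DESeq2 1.42.0 and limma 3.58.1 (voom) were alternatives, and human PFN1 was compared by an exact permutation test on log2(CPM + 0.5). The script was tested on simulated data. Bounded means a 95% interval within 1.2-fold.

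The comparison and the gene lists were chosen with earlier results of these data known. Genes are named by rule: human PFN1 and mouse Pfn1, the 10 largest called interactions of each sign (mean of 1 CPM or more), from every list the 3 called genes of lowest adjusted p, the 8 strongest shared and the 8 strongest cortex-led genes, and the 8 largest bounded cord-led changes, without predicted genes in all but the list rule. Members of a list that did not pass may be named too, and genes outside the rule are marked in the text. Some genes that the rule names are not reported here. The group of each library follows its title. Replicates were compared pairwise and none looked like a repeated library. Replicate numbers of the titles did not pair the samples throughout. Wild-type number 3 was female in cord and male in cortex, and transgenic number 4 was older in cortex than in cord. Same-numbered deviations of cord and cortex correlated at -0.39 to 0.31 in wild-type and -0.038 to 0.36 in transgenic mice. Within each tissue, same-numbered deviations of wild-type and transgenic libraries, which cannot share an animal, correlated at -0.42 to 0.46. As these ranges overlap, they do not decide on the other numbers, and pairing by library name was not tested.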

Additional observations from a re-analysis of the deposited data

Results flagged for a closer look

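The cord and cortex responses differed by the interaction test for 3495 genes, as described above. Among 428 groups of libraries of the named genes, 17 (3.97%) held a library that stood far from the others of its group by Dixon's test, and chance gives about 1 in 20.

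In wild-type cortex, library 4 was the highest for 3 early genes: Egr2 at 44.7 CPM (others 11.6 to 19.7), Junb at 133 CPM (52.6 to 75) and Npas4 at 66.9 CPM (37 to 42.5). In transgenic cortex, library 3 was high for Slc6a5 at 15.9 CPM (0.0967 to 1.37), Ccnb1 at 1.28 CPM (0.245 to 0.588) and Fdft1 at 75.9 CPM (71.7 to 72.8). Library 6 was high for Glra1 at 2.72 CPM (0.476 to 1.22) and Mab21l2 at 2.96 CPM (0.068 to 0.567). Library 2 was high for S1pr3 at 12.3 CPM (9.23 to 10.1) and Vav1 at 5.46 CPM (4.01 to 4.26), and library 4 was low for Slc32a1 at 56.3 CPM (65.3 to 69.6).

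In wild-type cord, library 1 was high for Myh2 at 15.7 CPM (0.0584 to 2.4) and low for Fos at 14.5 CPM (20.8 to 23.9), and library 5 was high for Cd53 at 6.92 CPM (4.97 to 5.66). In transgenic cord, Il1a was low in library 1 at 1.94 CPM (2.6 to 2.87), Lif was low in library 3 at 1.33 CPM (1.67 to 1.86) and Mmp9 was high in library 5 at 6.49 CPM (4.06 to 4.75).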

How the results depend on the processing

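Against 3495 interaction calls, 638 genes passed with females only, 2159 with all 52 libraries in the fit and 1994 with the cord vehicle arm by library names. Cord-led genes (3333) then numbered 627, 2076 and 1904, and cord calls (7109) 3808 with females only. Called cortex genes (24) numbered 59 with DESeq2, 14 with voom, 5 with females only, 37 with males only, 10 without the 39-week mice, 12 with all 52 libraries, 9 by library names, 12 without the 2 cord libraries of conflicting label, 93 without transgenic cortex 1, 3 and 6 and 7 without wild-type cord 1 and 4. Bounded cord-led genes (1896) numbered 521 at 1.1-fold and 2847 at 1.5-fold, 1203 with library totals, 1193 without a filter, 74 with females only, 1203 with males only, 805 with RNA integrity, 892 with all 52 libraries, 771 by library names, 1107 without the conflicting libraries and 956 without transgenic cortex 1, 3 and 6. The cause was not tested, beyond fewer samples in some fits. Leaving out 1 library gave 2875 to 4167 interaction, 6138 to 7642 cord, 8 to 84 cortex (without wild-type cortex 2 and 1), 2747 to 3937 cord-led and 1391 to 2311 bounded genes, and a log2 ratio of human PFN1 of 0.503 to 0.64. The share of interaction calls that were higher, 44.1%, was 59.6% without transgenic cord 1 and 64.8% without the conflicting libraries.

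With the replicate number as a block over all groups 3124 interaction, 6791 cord, 17 cortex and 2993 cord-led genes passed, and with the number as a block within genotype 2799 interaction genes did. Of 123 named genes 54 kept their call in all alternatives, 69 lost it in 1 or more, and Myh2 turned to 0.496 by library names. The 3 alternatives that drop or adjust for unusual libraries were chosen after seeing the data.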
